A study of Mus musculus with 8 samples.

Results

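The fibroblasts of 2 pancreatic tumors of KPC mice were 135 of the 4345 cells measured, 88 of 2812 cells in the medium size tumor (3.13%, 95% exact binomial interval 2.52% to 3.84%) and 47 of 1533 in the large size tumor (3.07%, 2.26% to 4.06%). A cell was taken as a fibroblast when at least 4 of 10 rule genes in the medium tumor, or at least 3 in the large tumor, had a unique molecular identifier (UMI, the tag that marks 1 captured RNA molecule), and when Upk3b and Nkain4, which mark the mesothelial lining of the abdomen, together had fewer than 2. The rule genes were Col1a1, Col1a2, Col3a1, Col6a3, Dcn, Lum, Pdgfra, Pdgfrb, Mmp2 and Fbln1. The cells were thus chosen by the UMIs of these 12 genes, so that the levels of the genes below describe the rule and are not findings. KPC mice carry conditional alleles, among them LSL-Trp53R172H/+, with Pdx-1-Cre, whose promoter drives Cre recombinase in the pancreatic epithelium, so that the alleles are switched on in the epithelial lineage and not in the stroma. The mice were untreated and their ages were not given in the sources used here. Each tumor was dissociated into single cells and sequenced with the 10x Genomics Chromium 3′ chemistry (v2). The 4 technical replicates of a tumor were deposited as 1 table, so each tumor is 1 sample, no test between or within the tumors was possible, and the intervals printed cover counting error only. The labels also mark the tumors differently, with SCS for the medium and Whole for the large, and do not explain these words. Size of tumor, its library and any difference in preparation cannot be told apart.

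Fibroblasts are the cells that build and remodel connective tissue. They secrete fibrillar collagens, which are hydroxylated and folded with the help of chaperones inside the cell and crosslinked by lysyl oxidases outside it. In pancreatic ductal adenocarcinoma they form a dense stroma, and they are commonly described by contractile (myofibroblastic), inflammatory and antigen-presenting gene programs.

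The fibroblasts of the medium tumor held 481328 UMIs, with a median of 4560 per cell (2740 to 19673), against a median of 5487.5 in the other cells. Those of the large tumor held 66347 UMIs, with a median of 1243 per cell (534 to 3928), against 1027. Levels are therefore given as UMIs per 1000000 UMIs of the summed cells (CPM), where 1 UMI was worth 2.08 CPM in the medium and 15.1 CPM in the large tumor. A gene with 0 UMIs could have had up to 6.23 CPM and 45.2 CPM, the worth of 3 counts. Each RNA molecule is counted once at its 3′ end, so that the levels of 2 genes were compared without a correction for length. Shares of cells with a UMI depend on depth, and they were also taken after thinning each cell to 500 UMIs.

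The 2 type I collagen chains and the type III chain made up most of the rule genes' UMIs. Col1a1 (chr11:94936224-94953042 of GRCm38, the build called mm10) stood at 2503 CPM in the medium tumor (exact Poisson interval 2364 to 2649) and 4205 CPM in the large tumor (3726 to 4729). Col1a2 stood at 3131 CPM (2975 to 3293) and 3075 CPM (2667 to 3527). Col3a1 stood at 3644 CPM (3476 to 3819) and 5969 CPM (5395 to 6586). The fibroblasts thus held 86.8% and 97.2% of all Col1a1 UMIs of their tumor. In single fibroblasts of the medium tumor, Col1a1 ranged from 0 to 107 UMIs per 10000 with a median of 22.8, and in those of the large tumor from 0 to 189 with a median of 30.2. All 3 chains were detected together in 72 of 88 and in 45 of 47 cells. After thinning, Col3a1 was detected in 69.3% and 95.7% of the fibroblasts, against 1.95% and 0.538% of the other cells.

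The small proteoglycans and the receptors separated the rule genes further. Dcn, which encodes the collagen-binding proteoglycan decorin, stood at 1502 CPM in the medium and 1779 CPM in the large tumor. Only 18.8% of the Dcn UMIs of the medium tumor lay in the fibroblasts, and the 63 cells with 2 or more UMIs of Upk3b and Nkain4, called mesothelial here, had 7746 CPM. Lum (lumican) stood at 222 and 317 CPM, Col6a3 at 154 and 317 CPM, and Mmp2, a gelatinase, at 715 and 241 CPM. Pdgfra and Pdgfrb, the receptors of platelet-derived growth factor, had low counts. Pdgfra had 20 UMIs in the medium and 4 in the large tumor, and Pdgfrb had 47 UMIs (97.6 CPM) and 1 UMI (15.1 CPM). A receptor of the pair was detected in 36 of 88 cells and in 4 of 47, and both in 7 and in 0. Fbln1 had 22 and 3 UMIs and, at 111 CPM, was higher in mesothelial cells than in the medium fibroblasts, at 45.7 CPM. The name fibroblast rests in the large tumor on the collagens and Dcn, since Pdgfrb was near its limit of detection there.

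**Figure D1:**
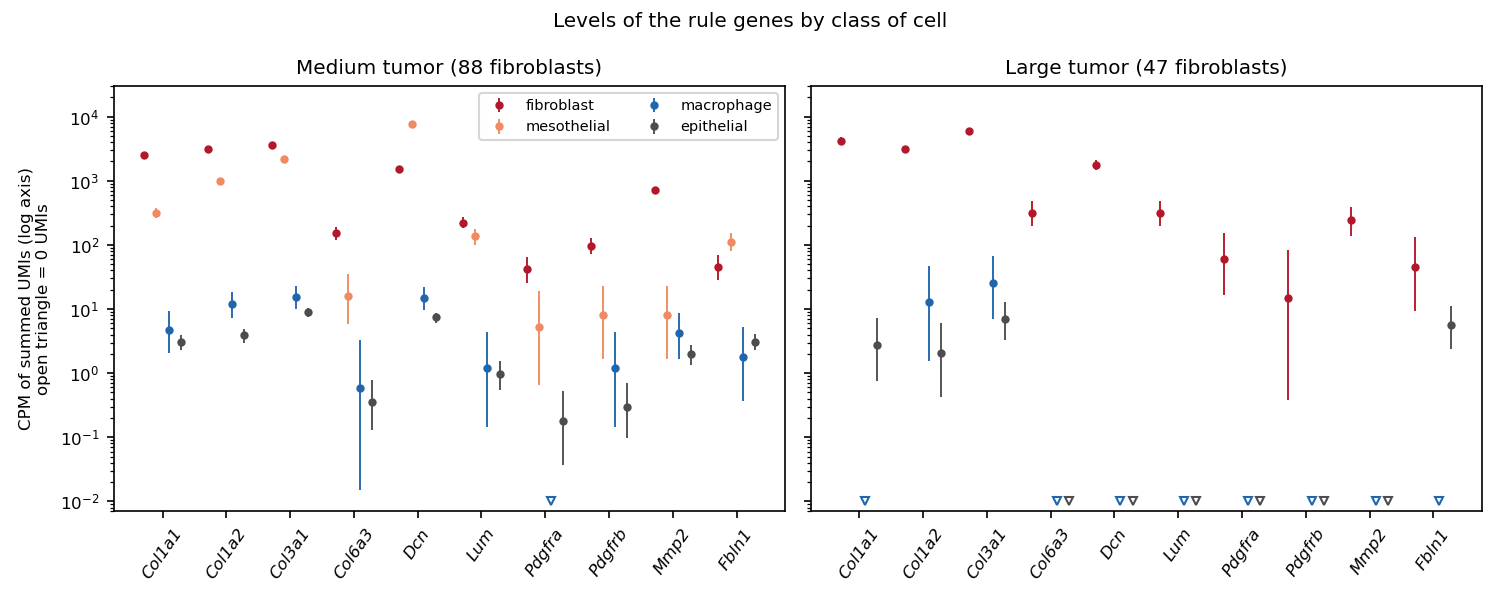
Levels of the 10 rule genes in CPM of summed UMIs (log axis) in the fibroblasts and in mesothelial, macrophage and epithelial cells of each tumor, with exact 95% Poisson intervals as bars and open triangles for 0 UMIs; the large tumor had no mesothelial cell. Col1a1, Col1a2 and Col3a1 lie between 2503 and 5969 CPM in the fibroblasts of both tumors, and only Dcn and Fbln1 are higher in the mesothelial cells.

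The cells near the border of the rule are described by Col3a1, which is itself a rule gene. A median fibroblast had 6 rule genes in the medium tumor and 5 in the large. The 17 cells of the medium tumor with exactly 4 rule genes had 855 CPM of Col3a1 and a mean of 4.88 of the 11 epithelial markers. The 13 cells just outside, with 3 rule genes, had 232 CPM and 5.15 epithelial markers. Just inside the rule of the large tumor, the 6 cells with 3 rule genes had 4179 CPM of Col3a1, and the 5 cells with 2 had 1938 CPM. The cells just inside the rule of the large tumor had 1873 CPM of Col1a1 and 2018 CPM of Sparc, against 4745 and 5684 CPM in the 14 cells with 4 rule genes.

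Markers of other cell types were found in part of the fibroblasts. A total of 23 cells of the medium tumor had at least 5 of the 11 epithelial markers (21 cells) or at least 4 of the 11 macrophage markers (5 cells), and their median depth of 7173 UMIs was above the 4127 UMIs of the other 65 fibroblasts. These 23 cells had 843 CPM of Col1a1 against 3520 CPM in the 65, 131 CPM of Acta2 against 1316 CPM, and 1598 CPM of Krt8, an epithelial keratin, against 141 CPM. With a limit of 3 markers, 7 of 47 cells of the large tumor were of this kind. Over all fibroblasts, the epithelial list summed to 2742 CPM in the medium tumor with 0 of 11 genes at 0, against 11890 CPM in epithelial cells, and to 874 CPM in the large tumor with 1 of 11 at 0, against 5277 CPM. The macrophage list summed to 457 CPM with 1 of 11 at 0, against 8536 CPM in macrophages, and to 286 CPM with 3 of 11 at 0, against 9382 CPM. The endothelial list summed to 416 CPM with 0 of 11 at 0 and to 181 CPM with 5 of 11 at 0, against 3870 and 4481 CPM in endothelial cells. All other cells had 185 and 132 CPM, and 6 of the 10 endothelial markers that passed the filter were past 2-fold higher in the medium fibroblasts, of which 6 cells were at the endothelial limit of 4 markers. Of the 8 markers of pancreatic stellate cells, Gfap and Lrat were among those at 0 in both tumors. Whether these markers came from doublets, free RNA or the cells themselves was not tested. The doublet caller marked 0 and 1 fibroblasts, and 13 and 5 fibroblasts were among the highest 5% of doublet scores. The caller marked only 0.0711% of all cells in the medium tumor and 0.587% in the large, so that its calls carry little weight for the fibroblasts.

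Of the single markers of other types, 14 were detected in at least 25% of the medium fibroblasts. Krt8, Krt18, Krt7, Krt19, Tspan8, Spint2 and Epcam are epithelial, and after leaving out the 23 cells Krt18 had 154 CPM in place of 1049 CPM. Ly6d, listed as a B cell marker, had 700 CPM in the fibroblasts and 1800 CPM in the other cells, and 4 of the 6 B cell markers were at 0. Ecscr is endothelial, and Msln and Wt1 are mesothelial. Wt1, a transcription factor gene, had 93.5 CPM in the fibroblasts and 220 CPM in mesothelial cells. Des and Ndufa4l2 are markers of pericytes and smooth muscle. Among markers in the large tumor, the granulocyte gene S100a9 was detected in 34.0% of fibroblasts at 301 CPM, and it was higher in the other cells, at 645 CPM. After thinning, S100a9 was in 10.6% of the large fibroblasts and 10.5% of the other cells.

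**Figure D2:**
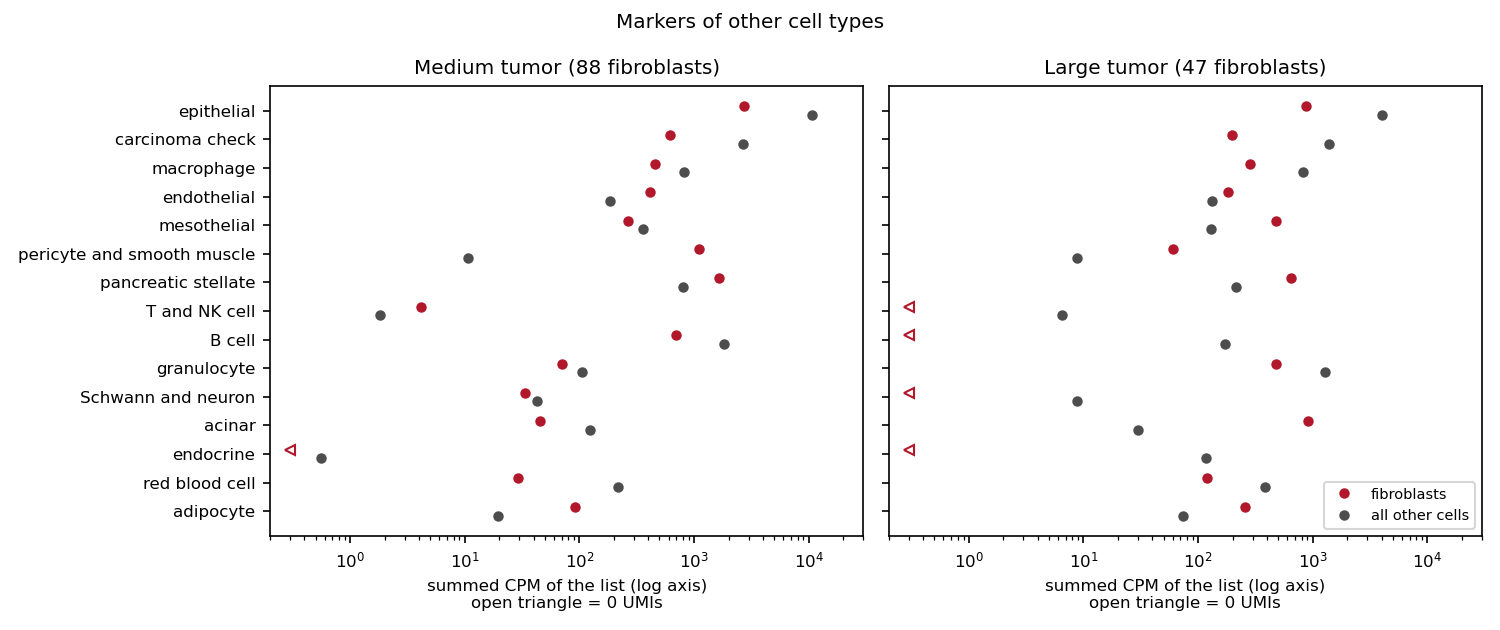
Summed CPM (log axis) of each list of markers of other cell types in the fibroblasts (red) and in all other cells (gray) of each tumor, with open triangles for lists at 0 UMIs. The pericyte and smooth muscle list stands at 1095 CPM in the medium fibroblasts and 60.3 CPM in the large, and the T and NK cell, B cell, Schwann and endocrine lists are at 0 in the large fibroblasts.

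The fibroblasts were next set against all other cells of the same tumor, gene by gene, as the ratio of CPM with 10 CPM added to both. In the medium tumor, 634 of 11194 genes (5.66%) were past 2-fold higher in the fibroblasts and 523 (4.67%) were past 2-fold lower. The large tumor had 688 of 7590 genes past 2-fold higher (9.06%) and 2187 past 2-fold lower (28.8%). The low calls of the large tumor carry little weight for single genes, since 1630 of the 2187 genes had 0 UMIs in its fibroblasts and 2082 had 3 or fewer. Of the 688 high calls, 195 had 10 or more UMIs in the fibroblasts. The median log2 ratio over all genes was -0.09 and -0.21. Upk3b, Nkain4 and the rule genes were left out of these counts.

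With 10 CPM added, and among genes detected in at least 25% of fibroblasts, the highest ratio of the medium tumor was that of Tagln (chr9:45929619-45936058), which encodes the actin-binding protein transgelin, with 1109 CPM (1017 to 1208) against 3.18 CPM in the other cells. It was followed by Bgn (biglycan) with 3121 CPM against 29.5 CPM, Itm2a with 1018 CPM against 5.20 CPM, Acta2 (smooth muscle actin) with 866 CPM against 4.19 CPM, and Fstl1 with 1251 CPM against 12.3 CPM. Sparc, a collagen-binding glycoprotein, had 5784 CPM (5571 to 6003) against 94.2 CPM and was detected in 97.7% of the cells. The rest of the first 20 were Col5a2, Mfap5, Sfrp1, Mgp, Serpinf1, Thy1, Timp3, Thbs2, Col8a1, Eln, Loxl1, Myl9, Aebp1 and Fbn1, with log2 ratios from 5.73 to 4.65.

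In the large tumor Sparc came first, with 5366 CPM (4823 to 5953) against 39.6 CPM. It was followed by the microfibril gene Mfap5 with 1130 CPM against 1.38 CPM, Mgp (matrix Gla protein, an inhibitor of calcification) with 2713 CPM against 20.3 CPM, and Fstl1 with 889 CPM against 4.14 CPM. Tagln had 41 UMIs in the fibroblasts and 0 in the other cells and was at least 448-fold higher, with 3 counts over the other cells as the floor. Lox, Col5a2, Bgn, Timp1, Igf1, Itm2a, Ccdc80, Lhfp, Ptgis, Fbn1, Slpi, Serpina3n, Timp3, Loxl1 and Cryab completed the 20. The lists of 20 shared 11 genes (Bgn, Col5a2, Fbn1, Fstl1, Itm2a, Loxl1, Mfap5, Mgp, Sparc, Tagln and Timp3), and 19 of the 20 genes of each tumor were past 2-fold higher in the other. Slpi differed from the rest in that 49.7% of its 447 UMIs in the large fibroblasts came from 1 cell.

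The listed genes of each role are counted next, among those with enough UMIs in all cells together. A gene found mainly in fibroblasts could pass this filter only through them and then had to differ, so that the counts and medians describe the genes that passed and are no support for a list. Among the listed collagens, 10 of 12 passed in the medium tumor and 5 of 12 in the large. With the minimum asked of the other cells alone, a choice made after the data were seen, 9 passed in the medium tumor, of which 8 were past 2-fold higher, and 1 in the large, of which 0 were. For the matrix glycoproteins these numbers were 13 of 16 and 5 of 8, for the contractile genes 9 of 12 and 3 of 7, and for the inflammatory genes 11 of 17 and 10 of 14. Of the fibrillar and associated collagens that passed the filter on low counts, 9 of 10 were past 2-fold higher in the medium tumor (median log2 ratio 3.35) and 4 of 5 in the large (4.09), with 0 past 2-fold lower in both. Col5a2, a chain of the type V collagen that nucleates fibrils, had 769 CPM against 4.69 CPM in the medium and 754 CPM against 2.76 CPM in the large tumor. Col8a1 had 416 CPM and 121 CPM, Col5a1 339 and 301 CPM and Col12a1 260 and 286 CPM. Col11a1 had 53 UMIs in the medium fibroblasts and 0 in every other cell of that tumor, at least 727-fold higher against 3 counts over those cells, and 0 UMIs in the large fibroblasts. Col27a1 was the member of the medium list that was not past 2-fold, with a log2 ratio of -0.27.

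Basement membrane genes followed, with 9 of 11 past 2-fold higher in the medium tumor (median 1.49) and 5 of 7 in the large (2.41). The type IV collagen genes Col4a1 and Col4a2 had 490 and 607 CPM in the medium fibroblasts. Their levels in the 44 endothelial cells of that tumor were 555 and 645 CPM, so that the fibroblasts did not stand apart from that class. Col4a1 had 256 CPM and Col4a2 362 CPM in the large tumor. Hspg2 (perlecan) had 231 CPM, Nid1 (nidogen) 208 CPM and Col15a1 177 CPM in the medium tumor. Lamc1, a laminin chain, had 181 CPM in the large tumor. Col18a1 was past 2-fold lower in the large tumor, with 3 UMIs, and had a log2 ratio of -0.58 in the medium.

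The collagen processing and crosslinking genes had 16 of 19 past 2-fold higher in the medium tumor (median 2.25) and 11 of 14 in the large (1.82), with 0 lower. Serpinh1, the collagen chaperone HSP47, had 771 CPM (694 to 853) against 69.9 CPM in the medium tumor and 1522 CPM (1240 to 1850) against 95.3 CPM in the large. Of the lysyl oxidases, Loxl1 had 393 and 286 CPM, Lox 293 and 693 CPM, and Loxl2 283 and 211 CPM. The procollagen enhancer Pcolce had 253 CPM and 317 CPM and passed 2-fold only in the large tumor, where its log2 ratio was 1.72 against 0.85 in the medium. The difference between the tumors was not tested.

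Of the matrix glycoproteins and proteoglycans, 18 of 21 genes were past 2-fold higher in the medium tumor (median 3.56) and 10 of 13 in the large (3.50). Fn1, which encodes fibronectin, was abundant but little restricted to the fibroblasts, with 3359 CPM against 1086 CPM in the medium tumor and 1990 CPM against 1139 CPM in the large, where macrophages had 4837 CPM. Bgn stood at 3121 CPM (2965 to 3282) in the medium tumor and at 633 CPM (456 to 856) in the large. Mfap5 had 875 and 1130 CPM, Fbln2 767 and 1311 CPM, and Cthrc1, a secreted gene of activated fibroblasts, 293 and 950 CPM. The elastin gene Eln had 145 UMIs (301 CPM) in the medium fibroblasts and 0 UMIs in the large, which allows up to 45.2 CPM. Omd had 0 UMIs in the fibroblasts of both tumors.

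**Figure D3:**
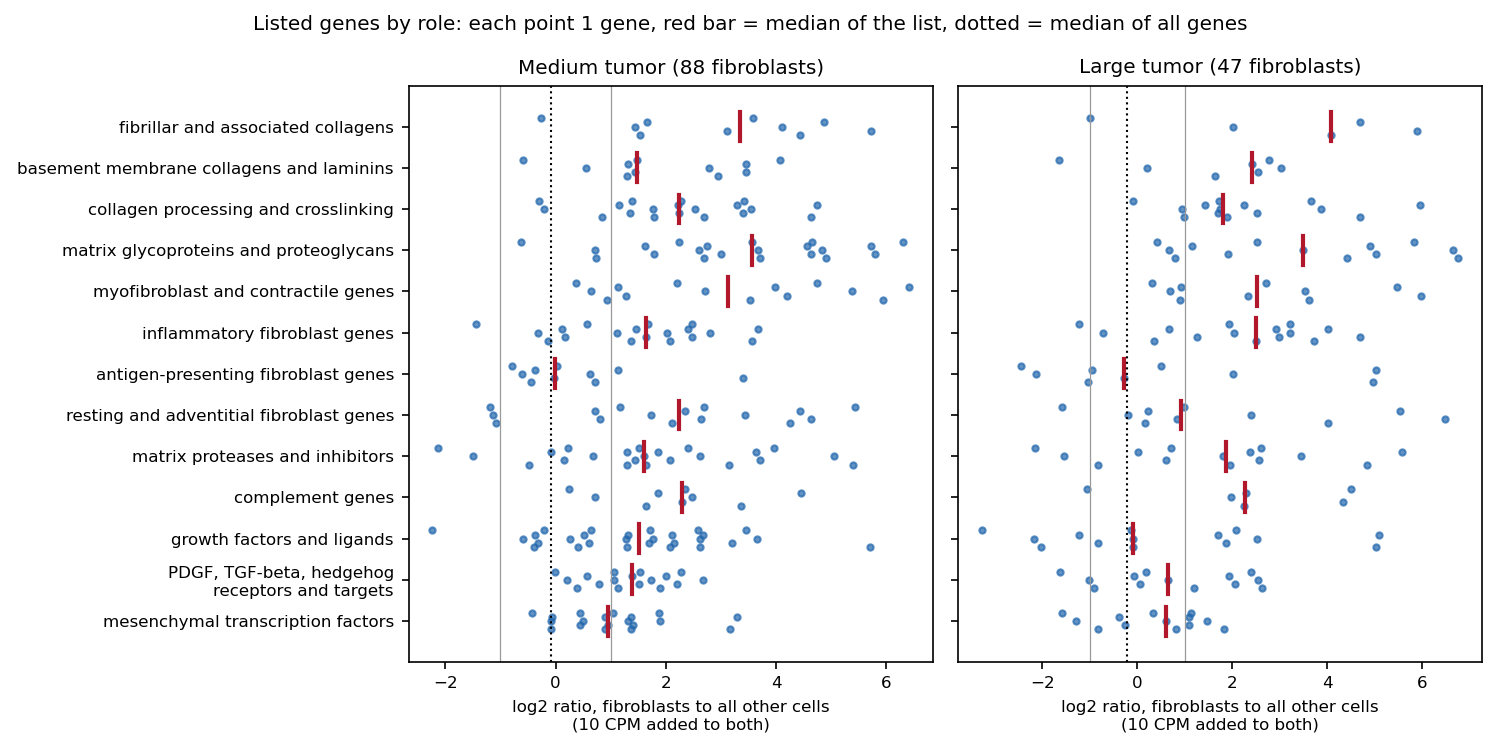
Log2 ratio of fibroblasts to all other cells of the same tumor for each listed gene that passed the filter (1 point a gene), with the median of the list (red bar), the median of all genes (dotted line) and the 2-fold limits (gray lines). The medians of the matrix lists lie between 1.49 and 4.09 in both tumors, whereas that of the antigen-presenting list lies at -0.00 and -0.27.

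The contractile genes were prominent in the medium tumor. Of the myofibroblast and contractile list, 11 of 14 genes were past 2-fold higher there (median 3.12) and 6 of 10 in the large tumor (2.52). Cald1, which encodes the actin-binding protein caldesmon, had 1924 CPM (1802 to 2052) and 1507 CPM (1226 to 1833). Igfbp3 had 1660 CPM and 241 CPM. Acta2 (chr19:34241090-34255590) was detected in 48 of 88 cells of the medium tumor and 11 of 47 of the large, at 866 CPM (785 to 954) and 452 CPM (305 to 645). Tagln was detected in 53 and 14 cells, at 1109 CPM and 618 CPM (443 to 838). At the common depth of 500 UMIs, Acta2 was in 23.9% and 8.51% of fibroblasts and Tagln in 28.4% and 21.3%, against 0.257% or less of the other cells. A single cell gave 33.3% of the 30 Acta2 UMIs of the large fibroblasts. The smooth muscle genes Myl9 (280 CPM), Cnn1 (64.4 CPM) and Actg2 (66.5 CPM) of the medium fibroblasts had 2, 0 and 0 UMIs in the large. Tpm2 had 669 and 482 CPM, and Tpm1, with 827 and 467 CPM, was not past 2-fold in either. Fap, the gene of fibroblast activation protein, had 3 UMIs in the medium and 0 in the large fibroblasts.

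Serum response factor, a general regulator of smooth muscle genes, binds a sequence called the CArG box. To show the regulatory sequence of the contractile genes beside their levels, RefSeq promoters (250 bases before to 50 after a start) of Acta2, Tagln, Myl9, Tpm1, Tpm2, Cnn1, Cnn2, Actg2 and Cald1 were searched on both strands; 7 of the 9 genes were matched, by 8 promoters. A CArG box was in 2 of the 8, against 1.63% of all 32851 promoters. TATAAA was in 1 (13.6% of all), and CCAAT in 4 (37.4% of all). Acta2, Tagln, Tpm2 and Actg2 had no match to a motif. The genes without a promoter to search were among them, so that no match there does not mean that a CArG box is absent. The bases before the start of the genes with a match are shown 5′ to 3′ with the CArG box in capitals, for Cnn2 at chr10:79988350-79988583 and for Myl9 at chr2:156775214-156775419, both on the + strand of GRCm38.p6. The box began 56 and 161 bases before the RefSeq start; the printed sequences end earlier, just before the start of the gene in the GENCODE annotation.
Cnn2: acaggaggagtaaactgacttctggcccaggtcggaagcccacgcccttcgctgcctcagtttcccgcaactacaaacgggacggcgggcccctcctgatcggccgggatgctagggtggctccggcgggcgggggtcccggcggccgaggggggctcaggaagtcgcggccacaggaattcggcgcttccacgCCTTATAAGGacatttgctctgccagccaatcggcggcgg
Myl9: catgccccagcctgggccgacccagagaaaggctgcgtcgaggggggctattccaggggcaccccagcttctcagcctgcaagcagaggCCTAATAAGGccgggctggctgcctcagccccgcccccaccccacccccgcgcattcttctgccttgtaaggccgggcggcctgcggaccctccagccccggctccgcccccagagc
Cnn2, the calponin of non-muscle cells, had 212 CPM in the medium fibroblasts against 82.0 CPM in the other cells, and Myl9, a myosin light chain, had 280 CPM against 0.858 CPM. Of the 10 rule genes, 5 were matched by 6 promoters, with 0 CArG boxes, 1 TATAAA (Col3a1) and 1 CCAAT (Col1a2). A match is a description of the letters and not a site in use.

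Inflammatory genes were high in the fibroblasts of the large tumor. Of the list, 11 of 15 genes were past 2-fold higher there (median 2.51) and 1 lower, and in the medium tumor 13 of 19 (1.64) and 1 lower. Ccl2, a chemokine that attracts monocytes, stood at 3874 CPM (3414 to 4377) in the large and 546 CPM (482 to 617) in the medium fibroblasts. Cxcl1, which attracts neutrophils, stood at 3105 CPM (2695 to 3559) and 546 CPM. In single cells of the large tumor Ccl2 ranged from 0 to 211 UMIs per 10000 with a median of 21.2, and in those of the medium tumor from 0 to 90.3 with a median of 0. Saa3, an acute phase gene, had 1552 and 702 CPM, the chemokine genes Ccl7 1402 and 287 CPM and Cxcl14 467 and 289 CPM, Tnfaip6 543 and 74.8 CPM, and Il6 317 and 72.7 CPM. Of the Saa3 UMIs of the medium fibroblasts, 41.4% came from 1 cell.

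These genes were not particular to the fibroblasts. Macrophages of the large tumor had 2156 CPM of Ccl2, 2273 CPM of Cxcl1 and 1651 CPM of Saa3, and those of the medium tumor 459, 1105 and 2169 CPM. The fibroblasts of the large tumor at the macrophage limit numbered 2, and without the 7 cells with epithelial or macrophage markers Ccl2 stood at 4134 CPM and Cxcl1 at 2890 CPM. Cxcl2, another neutrophil chemokine, was lower in fibroblasts, with 226 CPM against 629 CPM in the medium tumor and 995 CPM against 1634 CPM in the large, where it was not past 2-fold. The other cells of the large tumor also had more Cxcl1, at 802 CPM, than those of the medium tumor, at 205 CPM. Ccl2 stood at 229 CPM and 70.1 CPM in the other cells. Saa3, by contrast, stood at 188 CPM in the other cells of the large tumor and 212 CPM in those of the medium. The part of the other cells' levels in those of the fibroblasts was not tested. Cfd, a marker of the lipid-rich fibroblast, had 0 UMIs in the fibroblasts of both tumors.

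In single cells of the large tumor the contractile and the inflammatory genes tended to be high in different cells, and in the medium tumor this was weak. The 9 contractile genes had a median of 38.7 UMIs per 10000 in the medium tumor (1.56 to 318) and 22.7 in the large (0 to 192). The inflammatory list had a median of 18.0 (0 to 417) and 110 (0 to 408). After thinning to 500 UMIs a contractile UMI was in 84.1% of medium and 63.8% of large fibroblasts, against 30.0% and 17.8% of the other cells, and an inflammatory UMI was in 63.6% and 87.2%, against 32.7% and 41.7%. Both were in 46 of 88 and 24 of 47 cells, a contractile UMI alone in 28 and 6, an inflammatory UMI alone in 10 and 17, and neither in 4 and 0. Spearman's rho between the summed lists over thinned cells was -0.16 (88 cells) and -0.51 (47 cells). The cells of a tumor share 1 table, and the thinned cells share 1 total of UMIs.

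**Figure D4:**
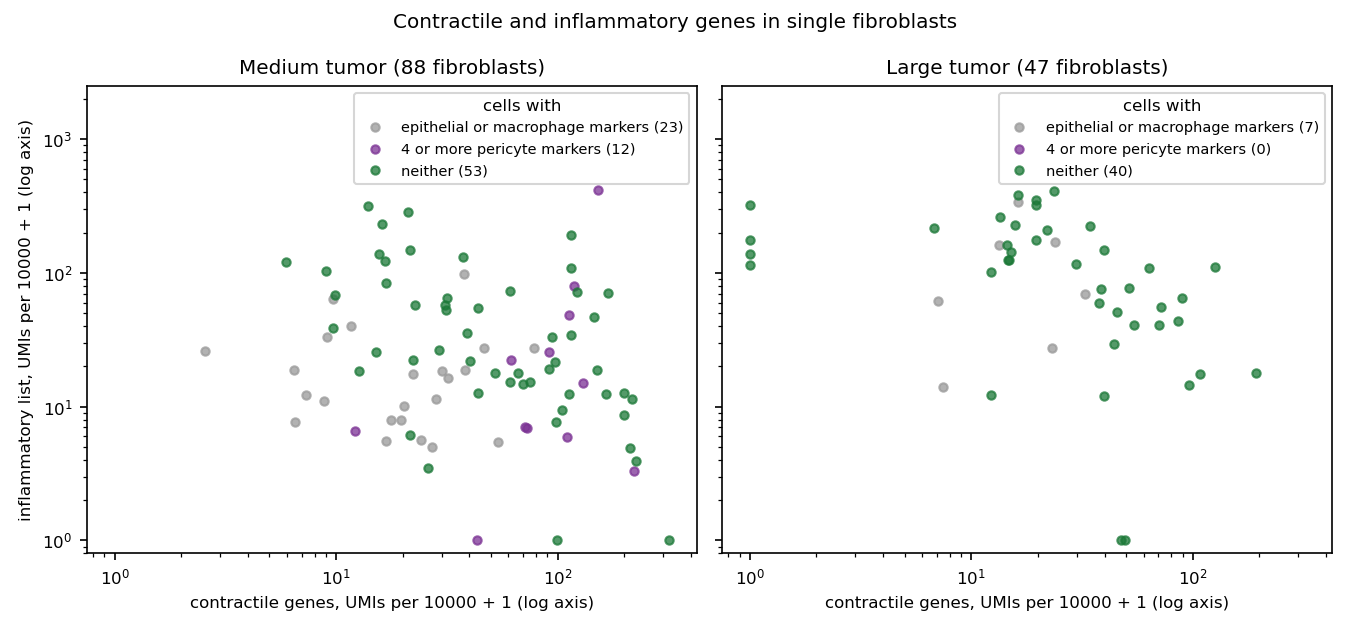
UMIs per 10000 plus 1 (log axes) of the 9 contractile genes and of the inflammatory list in each fibroblast, colored by markers of other cell types; 1 of the 13 cells with 4 or more pericyte markers is drawn among the gray cells of the medium tumor. The cell with the most contractile UMIs has 318 per 10000 in the medium tumor, with 0 inflammatory UMIs, and 192 in the large, with 16.7.

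The genes described for antigen-presenting fibroblasts had medians that depended on the cells included. Of 10 such genes 2, Ptgis and H2-DMb1, were past 2-fold higher in the medium tumor and 0 lower (median -0.00), and without the 23 cells with epithelial or macrophage markers 2 were higher and 5 lower (-0.85). Of 9 genes in the large tumor 3 were higher and 3, the class II genes H2-Aa, H2-Eb1 and H2-DMa with 6, 1 and 0 UMIs, were lower (-0.27), and without the 7 cells with epithelial or macrophage markers 2 were higher and 4 lower (-0.94). The share of all genes past 2-fold lower in the large tumor was 28.8%, near that of this list. Cd74, the invariant chain of MHC class II, had 189 CPM in the medium fibroblasts against 3247 CPM in macrophages, and 63.6 CPM without the 23 cells. It had 0 UMIs in the large fibroblasts but was not among the genes past 2-fold lower there, so that this 0 does not set them apart from the other cells. A class II gene was detected in 42 of 88 and 6 of 47 fibroblasts, of which 5 and 1 were at the macrophage limit. After thinning, a class II gene was in 9.09% of the medium fibroblasts against 12.4% of the other cells, and in 8.51% against 9.42% in the large tumor, so that the shares did not exceed those of the other cells. The mesothelial cells of the medium tumor were set apart by the limit on Upk3b and Nkain4, and 48 of these 63 cells otherwise met the rule. They had 917 CPM of Cd74 against 189 CPM in the fibroblasts. H2-Aa stood at 522 against 112 CPM, H2-Ab1 at 565 against 131 CPM and H2-Eb1 at 459 against 97.6 CPM. The members past 2-fold higher in the large tumor do not present antigen; they were Slpi, a protease inhibitor (6737 CPM), Ptgis, the prostacyclin synthase (392 CPM), and Cav1, a caveolar coat protein (136 CPM). Fth1, the ferritin heavy chain, was abundant at 10895 CPM and 15645 CPM but not past 2-fold. Ciita, the class II transactivator, had 0 UMIs in the fibroblasts of both tumors.

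Genes of resting and adventitial fibroblasts were split. There were 11 of 16 past 2-fold higher and 3 lower in the medium tumor (median 2.24), and 4 of 10 and 1 in the large (0.92). Mgp led with 3428 CPM and 2713 CPM. The noncoding RNA Meg3 came next in the medium tumor with 968 CPM and had 497 CPM in the large, below Igf1. Igf1, insulin-like growth factor, had 131 CPM (101 to 167) and 603 CPM (431 to 821). Gas6, a ligand of receptor kinases, had 328 CPM and 30.1 CPM. Ly6a, the gene of Sca-1, and Anxa3 were past 2-fold lower in the medium tumor, with 416 CPM against 963 CPM and 303 CPM against 680 CPM. The adventitial gene Pi16 had 33 and 5 UMIs.

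Among matrix proteases and their inhibitors the inhibitors were the more abundant. The list had 16 of 23 genes past 2-fold higher and 2 lower in the medium tumor (median 1.60), and 8 of 14 and 2 in the large (1.88). Timp1 had 2969 CPM (2817 to 3127) and 4507 CPM (4010 to 5047), Timp3 1820 and 1552 CPM, and Timp2 804 and 271 CPM. Serpinf1, which encodes the anti-angiogenic factor PEDF, had 548 CPM against 3.18 CPM in the medium tumor and 196 CPM in the large. Plat, a plasminogen activator, had 393 and 377 CPM. Mmp14, a membrane-bound protease, had 326 and 271 CPM. Mmp12 and Mmp13 were past 2-fold lower in the medium tumor, with 5 and 7 UMIs.

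Of the complement genes past the filter, 7 of 9 were past 2-fold higher in the fibroblasts of the medium tumor (median 2.29), and 5 of 6 were higher and 1 lower in the large (2.27). Of the members that also passed on the other cells alone, 7 of 9 were higher in the medium tumor, but in the large only 3 were left, with 2 higher and 1 lower. Serping1, the C1 inhibitor, had 769 CPM and 226 CPM, C3 638 and 422 CPM, and C1s1 206 and 301 CPM. C4b had 156 CPM in the medium tumor. In the medium tumor the summed list was higher in the mesothelial cells than in the fibroblasts, at 6483 CPM against 2069 CPM, and the mesothelial cells had 3776 CPM of C3, 488 CPM of C4b, 491 CPM of C1s1 and 915 CPM of Serping1. C7 had 0 UMIs in both.

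Growth factors and their binding proteins had 17 of 28 genes past 2-fold higher and 1 lower in the medium tumor (median 1.51). Of 14 genes in the large tumor 6 were higher and 4 lower, and the lower genes were near the 28.8% of all genes; the median was -0.08. Igfbp7 was the most abundant, with 6659 CPM (6430 to 6893) and 4823 CPM (4309 to 5382) and a UMI in every fibroblast of both tumors; endothelial cells had 5975 and 9109 CPM. Igfbp4 had 1805 and 1206 CPM. The secreted Wnt antagonist Sfrp1 had 582 CPM and 332 CPM. Sfrp2 had 4 UMIs (8.31 CPM) in the medium and 24 UMIs (362 CPM) in the large fibroblasts, of which 37.5% came from 1 cell. Igfbp5 had 239 CPM in the medium tumor. Bmp5 and Rspo3 had 0 UMIs in both.

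Receptors and targets of the PDGF, TGF-beta and hedgehog pathways had 12 of 17 past 2-fold higher in the medium tumor (median 1.38), and 6 of 13 higher and 2 lower in the large (0.64). Lrp1 had 272 and 60.3 CPM, Tgfbr2, a receptor of TGF-beta, 125 and 317 CPM, the interleukin 1 receptor Il1r1 108 and 136 CPM, Bmpr2 106 CPM in the medium tumor, and Gas1 and Tgfbr1 211 and 151 CPM in the large. The hedgehog targets Gli1 and Ptch1 had 1 and 6 UMIs in the medium and 0 and 0 in the large fibroblasts, and Hhip had 0 in both. Of the mesenchymal transcription factors, 9 of 19 were past 2-fold higher in the medium tumor (0.95), and 5 of 13 higher and 2 lower in the large (0.61). Klf4 had 482 and 950 CPM, Foxp1 226 and 106 CPM, and Tcf4 214 CPM and 30.1 CPM. Prrx1, a homeobox gene of mesenchyme, had 85.2 CPM against 0.656 CPM in the medium tumor and 106 CPM against 1.84 CPM in the large. Meox2, Tbx20 and Nkx3-2 had 0 UMIs in both.

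Within the medium tumor the fibroblasts differed in their markers of pericytes and smooth muscle, the contractile cells of vessel walls. Of 14 such markers, 24 cells had 0, 51 had 1 to 3 and 13 had 4 or more, with median depths of 3949, 4968 and 5224 UMIs. The split used these markers, so that Rgs5, at 1488 CPM in the 13 cells and 0 in the 24, only describes it. It rests on few cells, as 7 of the 88 had an Rgs5 UMI. By contrast, 0 cells of the large tumor had 4 or more of the markers and 43 had 0; Rgs5 had 0 UMIs there and Des 1.

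Acta2, Thy1, Col4a1 and Col4a2 were higher in the cells with 4 or more pericyte markers than in those with 0. Cells with epithelial or macrophage markers were 9 of the 24 cells, 13 of the 51 and 1 of the 13, and they moved with this split. Acta2 had 282 CPM (193 to 398) in the 24 cells, 971 CPM (861 to 1090) in the 51 and 1341 CPM (1093 to 1630) in the 13. Tagln had 220, 1371 and 1434 CPM, so that it was also high without many pericyte markers. Thy1, a surface glycoprotein, had 273, 482 and 1156 CPM. Col4a1 had 282 CPM (193 to 398), 393 CPM and 1182 CPM (949 to 1455), and Col4a2 had 282, 506 and 1488 CPM. Col3a1 differed little, with 3526 CPM (3189 to 3889), 3616 CPM and 3931 CPM (3496 to 4406), but Col1a1 had 1789 CPM (1552 to 2053), 2642 CPM and 3042 CPM (2660 to 3462). In the other direction, Cxcl1 had 1349, 325 and 199 CPM, C3 had 1243, 506 and 239 CPM, and Dcn had 2600, 1230 and 903 CPM. Without the cells with epithelial or macrophage markers, which was computed after the data were seen, 15, 38 and 12 cells were left. Acta2 then had 584 CPM (397 to 829), 1459 CPM and 1516 CPM (1234 to 1842), and Col4a2 had 339 CPM (201 to 536), 665 CPM and 1681 CPM (1384 to 2022). Cxcl1 had 2448, 453 and 225 CPM. The intervals of Col1a1 overlapped in these cells, at 3521 CPM (3035 to 4064), 3623 CPM and 3241 CPM (2823 to 3704), and Col3a1 was lower with more markers, at 5819 CPM (5188 to 6505), 4847 CPM and 3992 CPM (3526 to 4501). Tagln had 471, 1890 and 1621 CPM in these cells, Thy1 584, 649 and 1125 CPM, and Col4a1 471, 526 and 1321 CPM. The order of the 3 groups in Acta2, Thy1, Col4a1, Col4a2 and Cxcl1 was thus the same without the cells with other markers, with Thy1 and Col4a1 closer together, whereas that of Tagln, Col1a1 and Col3a1 was not. Endothelial markers moved with the split as well, with a summed level of 79.3 CPM (36.3 to 151) in the 24 cells, 291 CPM in the 51 and 1408 CPM (1153 to 1703) in the 13. The cells at the endothelial limit were 0 of 24, 3 of 51 and 3 of 13. Without these 6 cells, also computed after the data were seen, Acta2 had 282, 968 and 1479 CPM (1178 to 1834) and Thy1 had 273, 488 and 1194 CPM. Col4a1 then had 282, 352 and 802 CPM (585 to 1073) and Col4a2 had 282, 403 and 980 CPM (738 to 1276), so that the order was the same and both collagens were lower in the 10 remaining cells than in all 13. Without the 13 cells, the list counts of the contractile, fibrillar, inflammatory and complement genes past 2-fold higher were 11, 9, 13 and 7, as with them. Cells of 1 tumor are not replicates, and whether these are pericytes or fibroblasts with such genes was not tested.

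**Figure D5:**
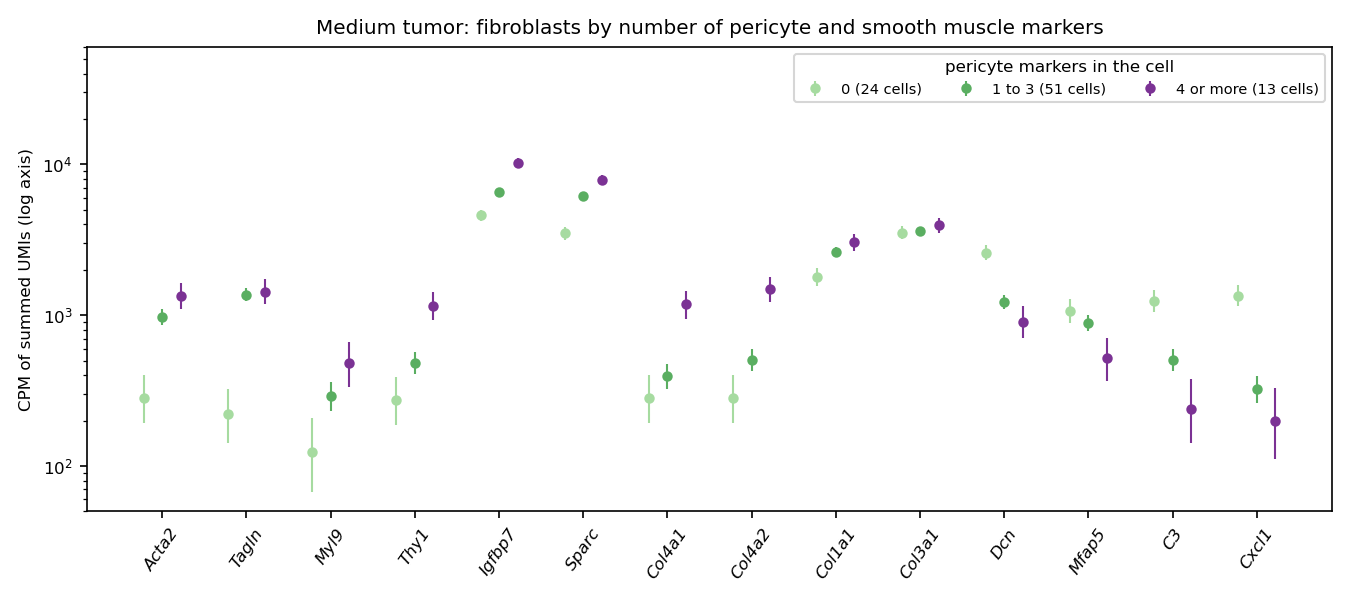
Levels in CPM of summed UMIs (log axis, bars are exact 95% Poisson intervals) of 14 genes in the medium fibroblasts with 0, 1 to 3 and 4 or more of 14 pericyte and smooth muscle markers. Acta2, Thy1, Col4a1 and Col4a2 are higher with more markers, Dcn, C3 and Cxcl1 are lower, and the intervals of Col3a1 overlap with all 88 cells included.

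The class most like the fibroblasts was the mesothelial class of the medium tumor, since 48 of its 63 cells also met the rule for the 10 genes. Both were cut with Upk3b and Nkain4, and the ratios are given as a description. Acta2 was 29.7-fold (16.4 to 60.0) and Tagln 13.5-fold (9.39 to 20.1) higher in fibroblasts. Col1a1 was 7.93-fold higher (6.57 to 9.66), but Col3a1 only 1.67-fold (1.54 to 1.82). In mesothelial cells Dcn was 5.16-fold (4.75 to 5.60), C3 5.92-fold (5.23 to 6.72) and Slpi 16.8-fold (14.3 to 19.9) higher. Sfrp1 had 280 UMIs in the fibroblasts and 1 in the mesothelial cells, a ratio of 219 (39.1 to 8696). Dcn, Col1a1 and Col3a1 are rule genes, so that their ratios are partly set by the rule.

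The large tumor had 0 cells past the mesothelial limit, but 3 of its 47 fibroblasts had at least 3 mesothelial markers. These 3 cells had 20145 CPM of Slpi against 5354 CPM in the other 44 cells, where 222 of the 322 UMIs came from 1 cell and the level without it was 1722 CPM (1401 to 2095). They had 4996 CPM of Dcn against 1447 CPM, 1612 CPM of C3 against 299 CPM, and 1450 CPM of Col1a1 against 4489 CPM. These 4 genes were chosen after their ratios in the medium tumor were seen, and Dcn and Col1a1 are rule genes. The cell with 7 mesothelial markers and the cell with 5 also had 3 epithelial markers each, the limit in the large tumor. Which of these markers the 4 levels went with was not tested. Another single cell of the large tumor held all 61 UMIs of the acinar markers, among them Ctrb1 and Prss2, and without it the list was at 0.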

How the data were processed

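Single-cell RNA of 2 tumors was deposited as 1 table of counts for each tumor, in which the authors had pooled 4 technical replicates. The counts are UMIs of 27775 gene rows made with Cell Ranger on mm10, per the labels. The version was not given in the sources used here. A further 39 symbols stood on more than 1 row, and their rows were not summed. They were left out wherever genes were looked up by name and entered the ratios over all genes row by row. The 13 mitochondrial protein genes had 0 UMIs. The tables held 20301669 and 2239012 UMIs, and 5 barcodes were in both, none of a fibroblast. No cell was removed. Other cells were classed by the first limit met, mesothelial (2 UMIs of Upk3b and Nkain4), macrophage, endothelial and epithelial. Counts were summed per class and divided by the class total. Genes with at least 50 (medium) or 20 (large) UMIs in all cells entered the ratios. Exact Poisson and Clopper-Pearson intervals (95%) came from scipy 1.17.1 and doublet scores from Scrublet in scanpy 1.11.5; the scripts were tested on simulated data. In the lists, the text names the rule genes, the 4 highest genes in each tumor, genes at 0 in both, the 20 highest ratios among genes in 25% of fibroblasts, and other markers in 25% of them; other genes, such as Col11a1, Col18a1, Col27a1, Cthrc1, Fap, Il6, Tnfaip6, Cxcl2, Anxa3, Pi16, Mmp14 and Gli1, were chosen after their values were seen. The members and lists were chosen with earlier results of these data known. Ccn2, Plpp3, C1s, Vegfd and Trac were not matched. Promoters came from RefSeq (GRCm38.p6) and gene positions from GENCODE M21. Some genes and alleles that the rule or labels name are not reported here. Alternatives tried are given in the closing section.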

Additional observations from a re-analysis of the deposited data

Results flagged for a closer look

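The log2 ratio of the transcription factor gene Tcf4 in fibroblasts to that in other cells was 1.41 in the medium tumor and -1.28 in the large, so that it lay past 2-fold in opposite directions. It had 103 UMIs (214 CPM against 74.2 CPM) in the medium fibroblasts and 2 UMIs (30.1 CPM, exact Poisson interval 3.65 to 109, against 87.5 CPM) in the large. The interval of the ratio in the large tumor, 0.0414 to 1.26, reached above 1, and the difference between the tumors was not tested.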

How the results depend on the processing

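No paired analysis was possible because the technical replicates of a tumor are not told apart in its table; leaving out each replicate could not be run for the same reason. With 2 rule genes more, 52 cells (medium) and 27 cells (large) remained in place of 88 and 47, and without the limit on Upk3b and Nkain4 the medium tumor had 136. The genes past 2-fold higher in fibroblasts of the medium tumor were 1094 with 1 CPM added, 260 with 50 CPM added and 368 at 4 times the UMI minimum, in place of 634. The genes past 2-fold lower in fibroblasts of the medium tumor were 1895 with 1 CPM added, 119 with 50 CPM added, 956 with 2 rule genes more, 1140 without cells with epithelial or macrophage markers and 787 without the highest 5% of doublet scores, in place of 523. The genes past 2-fold higher in fibroblasts of the large tumor were 243 with 50 CPM added, 1500 with no filter and 200 at 4 times the minimum, in place of 688, and the genes past 2-fold lower in fibroblasts of the large tumor were 308 with 50 CPM added and 793 at 4 times the minimum, in place of 2187. The other counts stayed within 1.5 times. The median log2 ratio of antigen-presenting fibroblast genes, medium tumor, was -0.998 with 1 rule gene more, -1.12 with 2 more and -0.85 without cells with epithelial or macrophage markers, in place of -0.00. The median log2 ratio of growth factors and ligands, medium tumor, was 2.42 with 1 CPM added, in place of 1.51. With 50 CPM added the median log2 ratio of collagen processing and crosslinking, medium tumor, was 1.29 in place of 2.25. That of PDGF, TGF-beta and hedgehog receptors and targets, medium tumor, was 0.74 in place of 1.38. The medians of the other matrix lists also moved over the settings tried. In the medium tumor they ran from 1.89 to 4.24 for fibrillar and associated collagens, 2.26 to 4.41 for matrix glycoproteins and proteoglycans, and 0.912 to 2.74 for basement membrane genes. In the large tumor they ran from 2.59 to 5.03, 1.96 to 4.68 and 1.51 to 2.84. Without the cells with epithelial or macrophage markers, 124 of 192 gene levels of the medium tumor and 16 of 79 of the large moved beyond their interval. Leaving out the cell with the most UMIs of a gene moved 39 and 6, and the mean of each cell's own CPM moved 49 and 8. Taking the other cells without mesothelial cells gave no new value for the large tumor, which had 0 such cells. Leaving out cells with pericyte, mesothelial, acinar or endothelial markers was chosen after seeing the data. Depth limits the large tumor most: 1 UMI was 15.1 CPM there.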
